A study of Mus musculus with 2 samples.

Results

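The genes of the photoreceptor calcium feedback and shutoff machinery were followed across the cells of the mouse retina, namely Guca1a, Guca1b, Gucy2e, Gucy2f, Rcvrn, Pdc, Grk1, Rgs9, Rgs9bp and Slc24a1. They were taken by name, and all 10 were found among the 25778 genes of the count table. Droplet single-cell RNA sequencing was run on whole dissociated retina at P30 (30 days of age) from 1 animal of each genotype. The control, Ptbp1-Ctrl, carried Chx10-Cre alone, and the mutant, Ptbp1-KO, was Chx10-Cre;Ptbp1lox/lox. Both mice carried Chx10-Cre, a Cre-GFP transgene active in retinal progenitors, and the loxP sites flank the promoter and first exon of Ptbp1, a gene for a splicing repressor that binds RNA. There was 1 library per genotype, so every difference between genotypes compares 2 libraries without a replicate check, and genotype, animal, dissociation and library cannot be told apart.

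Light closes the cyclic nucleotide-gated channels of the outer segment, calcium falls, and a set of calcium-dependent proteins returns the cell to its dark state. The retinal guanylate cyclases encoded by Gucy2e and Gucy2f resynthesise cGMP, and the guanylate cyclase activating proteins encoded by Guca1a and Guca1b speed them up when calcium is low. The kinase encoded by Grk1 starts the shutoff of the light-activated visual pigment and is held back by the calcium sensor recoverin (Rcvrn), phosducin (Pdc) binds the free beta-gamma subunits of transducin, Rgs9 with its membrane anchor Rgs9bp and the subunit Gnb5 switches transducin off, and the exchanger encoded by Slc24a1 carries calcium out of the rod outer segment. Mutations in several of these genes cause retinal dystrophy in humans.

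The 10 genes lie on 7 chromosomes. On the GENCODE annotation of GRCm38 (mm10), Gucy2e was placed at chr11:69218117-69237036 and Gucy2f at chrX:142081160-142196931, both on the minus strand. Guca1b at chr17:47385393-47392967 (plus strand) and Guca1a at chr17:47394558-47400584 (minus strand) face each other tail to tail, with 1590 bases between their 3 prime ends. Rcvrn was placed at chr11:67695326-67703333, Pdc at chr1:150319417-150333906, and Grk1 at chr8:13405081-13421951, all on the plus strand. Rgs9 lay at chr11:109225355-109298129, Rgs9bp at chr7:35578993-35585582 and Slc24a1 at chr9:64922861-64951607, all on the minus strand. The annotated lengths ran from 6.03 kb (Guca1a) to 116 kb (Gucy2f). Only Rcvrn and Pdc were overlapped by other annotated genes, Rcvrn by Glp2r on the opposite strand, and Pdc by 2310030A07Rik on the opposite strand and by Gm37764 on its own strand. In rods of Ptbp1-Ctrl and Ptbp1-KO, Glp2r had 84.3 and 83.8 CPM and 2310030A07Rik 201 and 189 CPM, where CPM is the UMIs of a gene per 1000000 UMIs summed over the cells of a group. Gm37764 was not in the count table. Whether the overlaps changed the values of Rcvrn and Pdc was not tested.

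Promoter windows are shown for both cyclases, for Guca1a and for Slc24a1, to set the 2 cyclases beside the gene that was higher in cones and a gene that was higher in rods. RefSeq (GRCm38.p6) gave a start for 7 of the 10 genes, and the windows run from 250 to 21 bases before it, 5 prime to 3 prime on the strand of the gene. They lie at chr11:69237043-69237272, chrX:142196957-142197186, chr17:47400627-47400856 and chr9:64951641-64951870, all on the minus strand. Capitals mark TAATCC or its reverse GGATTA, the core bound by the photoreceptor homeodomain factors CRX and OTX2.
Gucy2e: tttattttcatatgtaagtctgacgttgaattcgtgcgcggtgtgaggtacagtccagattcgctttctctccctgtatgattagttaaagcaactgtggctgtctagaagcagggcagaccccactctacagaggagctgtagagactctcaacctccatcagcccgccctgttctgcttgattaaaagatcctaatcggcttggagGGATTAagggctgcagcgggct
Gucy2f: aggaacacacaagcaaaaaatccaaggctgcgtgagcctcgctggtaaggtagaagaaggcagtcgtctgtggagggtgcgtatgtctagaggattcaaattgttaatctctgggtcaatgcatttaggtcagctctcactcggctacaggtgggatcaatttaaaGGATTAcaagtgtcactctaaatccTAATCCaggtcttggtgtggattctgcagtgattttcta
Guca1a: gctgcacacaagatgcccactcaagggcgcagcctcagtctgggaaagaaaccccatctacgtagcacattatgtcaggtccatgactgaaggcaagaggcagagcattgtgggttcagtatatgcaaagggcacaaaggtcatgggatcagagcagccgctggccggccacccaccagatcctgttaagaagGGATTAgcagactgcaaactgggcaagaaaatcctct
Slc24a1: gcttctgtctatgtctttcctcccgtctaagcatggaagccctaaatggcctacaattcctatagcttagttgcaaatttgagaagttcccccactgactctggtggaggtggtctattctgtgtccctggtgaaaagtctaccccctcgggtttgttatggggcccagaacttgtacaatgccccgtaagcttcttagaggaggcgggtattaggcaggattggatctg
These letters were in 3 of the 7 windows (Gucy2e 1 match, Guca1a 1, Gucy2f 2), against 5.88% of 32851 windows of the same length over all entries and 4 of 19 windows (21.1%) of the other phototransduction genes. TGCTGA or its reverse TCAGCA, part of the element bound by the rod factor NRL, was in 1 of the 7 windows (Rgs9) and in 14.9% of all. A match is a description of the letters and not a binding site.

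The 2 libraries held 16421 and 14522 cells (32758836 and 35328593 UMIs), with 63 barcodes occurring in both. Rods made up 10058 and 9301 of these cells and cones 632 and 439, with cell types as the authors had named them. Ptbp1 itself had 825 UMIs over the control cells and 14 over the mutant cells. Xist had 5 and 6 UMIs and the Y-linked Uty 6164 and 7085, whereas the methods name female mice. Gucy2f is the X-linked gene of the set. The names of the photoreceptor classes matched their markers: 5 cone markers (Arr3, Opn1sw, Opn1mw, Gnat2, Pde6h) summed to 26518 and 27596 CPM in cones and to 157 and 178 CPM in rods. Rod RNA was found in every other cell type. The 4 rod markers used (Gnat1, Pde6b, Nrl, Nr2e3) summed to 9760.3 and 9255 CPM in rods, 2396 and 2420.2 CPM in cones and 1752 and 1706 CPM in amacrine cells (AC), and this background stands beside each result below.

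The question of the first comparison was which of these genes rods and cones share. The 10 genes together took 1.47% (Ptbp1-Ctrl) and 1.31% (Ptbp1-KO) of the UMIs of rods, in cones 1.203% and 1.07%, and in AC 0.273% and 0.236%. Guca1b, Gucy2f and Slc24a1 were more than 2-fold higher in rods than in cones in both libraries, 6 genes were nearer to each other in the 2 cell types, and Guca1a was higher in cones. That is 3 of 10 genes past 2-fold in rods, against 6.39% of 3800 genes measured at a mean of at least 50 CPM and 50 UMIs, and 0 of 10 past 2-fold in cones, against 6.87%. The median log2 ratio of rods over cones was 0.53 in Ptbp1-Ctrl and 0.44 in Ptbp1-KO, against 0.04 and 0.03 over all genes. These medians depended on the processing. With free RNA subtracted, as described below, that of Ptbp1-KO turned negative over the genes with a value. Intervals given here are at 95% and cover counting error only.

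The cyclases differed in this. Gucy2e was at 355 CPM in rods (344.7 to 365) and 256 CPM in cones (233 to 281) in Ptbp1-Ctrl, and at 309.8 and 236 CPM in Ptbp1-KO. Its log2 ratio of rods over cones was 0.47 (0.33 to 0.61) and 0.39 (0.23 to 0.56), so this cyclase was present in both cell types at similar levels. Gucy2f was at 484 CPM in rods and 96.3 CPM in cones in Ptbp1-Ctrl, and at 444 and 73.7 CPM in Ptbp1-KO. Gucy2f had the largest rod excess of the 10 genes, a log2 ratio of 2.33 (2.11 to 2.56) in the control and of 2.59 (2.31 to 2.88) in the mutant.

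The activating proteins of the cyclases separated in the opposite way from each other. Guca1a was at 2669 CPM in rods and 4448 CPM in cones in Ptbp1-Ctrl, and at 2285 and 3821 CPM in Ptbp1-KO, which made it 1.67-fold higher in cones in both libraries (log2 ratios of -0.74 each). Guca1b was at 1483 CPM in rods and 472 CPM in cones in Ptbp1-Ctrl, and at 1290 and 401 CPM in Ptbp1-KO. It was 3.14-fold and 3.21-fold higher in rods. Of the neighbouring pair on chromosome 17, then, one gene stood higher in cones and the other in rods.

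The exchanger gene Slc24a1 was at 1424 CPM in rods and 330.1 CPM in cones in Ptbp1-Ctrl, and at 1223 and 308 CPM in Ptbp1-KO, with log2 ratios of 2.11 and 1.99. Its cone counterpart Slc24a2, which is no member of the set, was at 3.91 and 6.55 CPM in rods and at 594 and 654 CPM in cones. The 2 exchangers thus took opposite sides.

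The remaining shutoff genes were close in the 2 photoreceptor classes. Rcvrn was at 2620 CPM in rods and 2451 CPM in cones in Ptbp1-Ctrl, and at 2335 and 2052 CPM in Ptbp1-KO, with log2 ratios of 0.10 and 0.19, the smallest of the set. Which class was higher was not settled, since the sign turned under 4 of 8 other settings in Ptbp1-Ctrl and 3 of 8 in Ptbp1-KO. Pdc was at 3691 against 2451 CPM and at 3248 against 2270 CPM, a log2 ratio of 0.59 and 0.52. Grk1 was at 552 against 399 CPM and at 516 against 370.4 CPM, a log2 ratio of 0.47 and 0.48. For the transducin switch, Rgs9 was at 1067 against 894 CPM and at 1095 against 908 CPM, and its anchor Rgs9bp at 373 against 234 CPM and at 313 against 252 CPM. The rod excess of Rgs9bp was 0.67 (0.52 to 0.82) on the log2 scale in Ptbp1-Ctrl and 0.31 (0.16 to 0.47) in Ptbp1-KO, while Rgs9 gave 0.25 and 0.27. As an alternative, the mean UMIs of each gene in an amacrine cell were subtracted from every cell as free RNA, with totals left as they were. The sign then turned for Rcvrn and Rgs9 in both libraries and for Gucy2e and Rgs9bp in Ptbp1-KO. Rods were shallower than cones (median 1088 and 1288 against 2659.5 and 3179 UMIs). An equal number of UMIs is therefore a larger part of a rod, and this setting lowers rods more than cones.

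**Figure D1:**
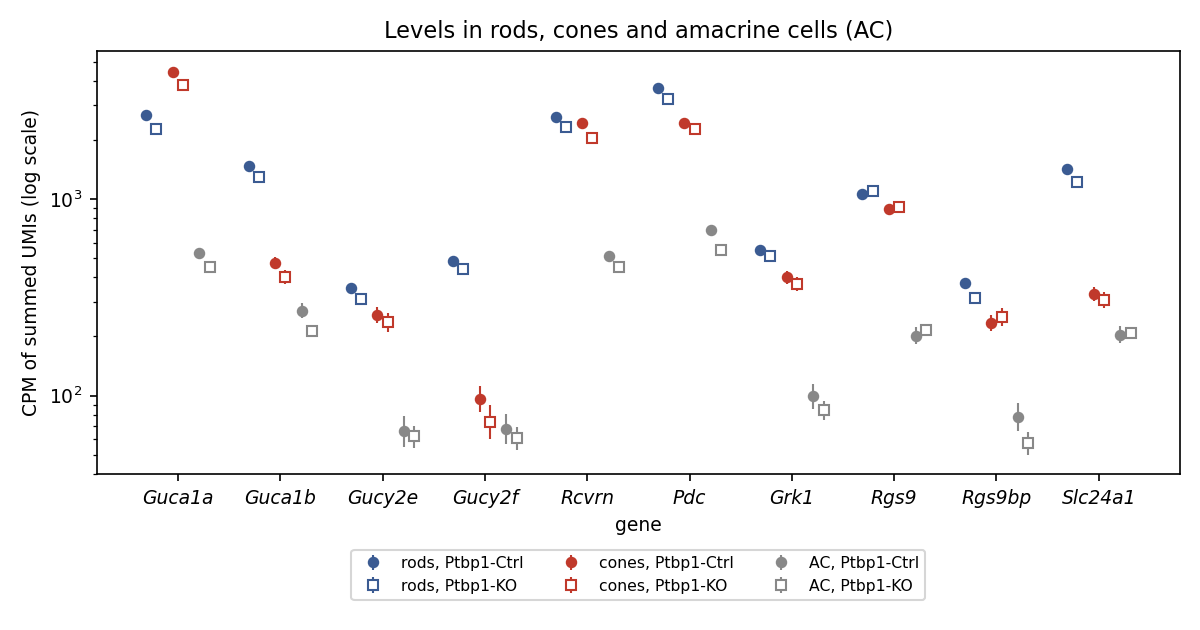
Level of each gene (CPM of summed UMIs, log scale) in rods, cones and amacrine cells (AC) of the Ptbp1-Ctrl library (filled circles) and the Ptbp1-KO library (open squares); bars are 95% Poisson intervals for counting error. Guca1a lies higher in cones than in rods, and Guca1b, Gucy2f and Slc24a1 lie more than 2-fold lower in cones than in rods, and lower again in AC, with intervals that overlap between cones and AC for Gucy2f in Ptbp1-KO.

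Among other genes of phototransduction the measured ratios were larger on the cone side. Of 25 such genes, 6 were past 2-fold in rods in both libraries (Gnat1, Gnb1, Pde6a, Pde6b, Cnga1, Cngb1), and 11 were past 2-fold in cones (Opn1sw, Opn1mw, Gnat2, Gnb3, Gngt2, Pde6c, Pde6h, Cnga3, Cngb3, Arr3, Slc24a2). The cone genes reached log2 ratios of -8.51 (Cngb3, Ptbp1-Ctrl) and -8.33 (Opn1mw, Ptbp1-KO), whereas the rod genes stopped at 2.25 (Cngb1) and 2.27 (Cnga1). The partner of Rgs9, Gnb5, had log2 ratios of 0.65 and 0.79, and Rd3, whose protein carries the cyclases to the outer segment, had -0.43 and -0.32.

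The rod RNA found in cones bounds what the 3 rod-high genes can show. The 4 rod markers stood in cones at 22.2 to 25.3% of their rod level in Ptbp1-Ctrl and at 21.1 to 28.5% in Ptbp1-KO. Gucy2f stood at 19.9% and 16.6%, below that range in both libraries, and Slc24a1 at 23.2% and 25.2%, within it, so no cone level of these genes above the rod RNA in cones was detectable. Guca1b stood at 31.8% and 31.1%, above the markers. The other 7 genes stood between 62.9% (Rgs9bp, Ptbp1-Ctrl) and 167% (Guca1a) of their rod level, well above the markers in both libraries. In AC the median of the 10 genes was 18.7% of the rod level in Ptbp1-Ctrl and 17.7% in Ptbp1-KO, with Gucy2f lowest (14.0% and 13.7%) and Rgs9bp (20.98%) and Gucy2e (20.001%) highest, beside 17.5 to 19.2% and 15.8 to 19.2% for the rod markers. The share of these levels that is free RNA, and the share from cells captured together, was not tested.

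**Figure D2:**
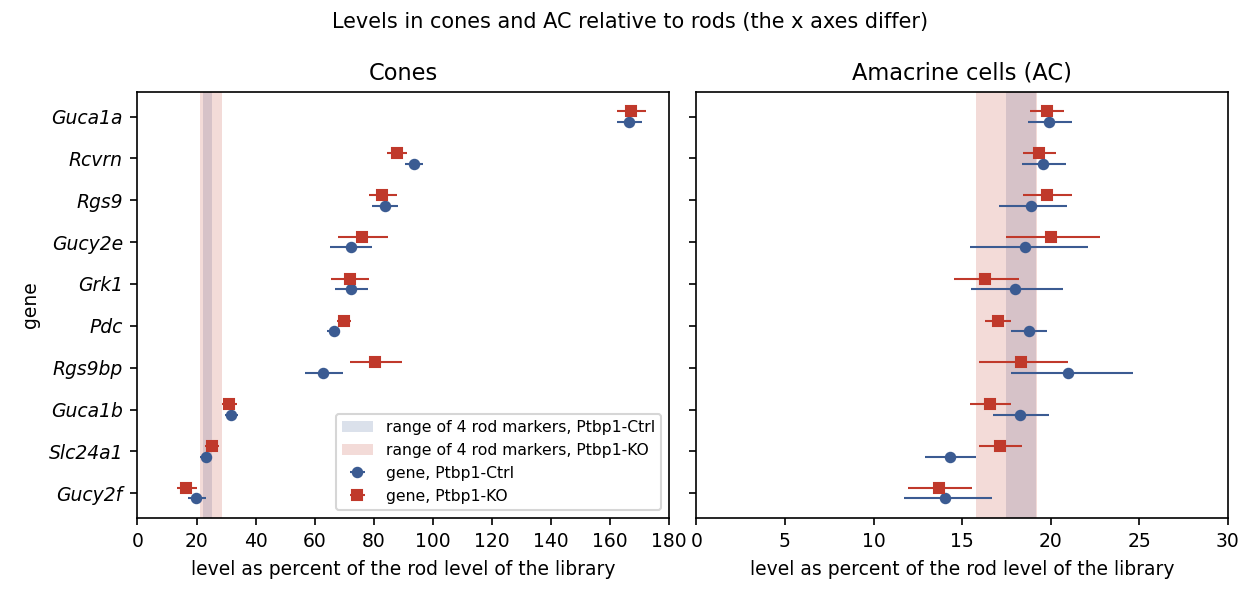
Level of each gene in cones (left) and amacrine cells (right) as a percent of its rod level in the same library, with 95% intervals for counting error; shaded bands span the 4 rod markers. In cones 7 genes lie at 62.9% or more, Guca1b just above the bands, and Slc24a1 and Gucy2f within or below them; in AC the 10 genes lie between 13.7% and 20.98%.

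The share of cells with at least 1 UMI gave the same division at equal depth. After each cell was thinned to 1000 UMIs, 34.1% (32.9 to 35.3%) of Ptbp1-Ctrl rods and 34.6% of Ptbp1-KO rods held Gucy2f, against 7.64% and 6.82% of cones and 4.64% and 7.74% of AC. The intervals of cones and AC overlapped for Gucy2f in both libraries (5.63 to 10.1% and 3.13 to 6.6% in Ptbp1-Ctrl), while its cone level of 96.3 CPM in Ptbp1-Ctrl stood above the amacrine level of 67.98 CPM. Slc24a1 was found in 70.0% and 61.9% of thinned rods, 20.5% and 18.4% of cones and 16.6% and 18.05% of AC, and Guca1b in 76.2% and 68.0%, 34.3% and 30.4%, and 23.7% and 18.8%. Guca1a was found in 90.5% and 84.5% of rods and in 93.7% and 87.3% of cones, against 37.8% and 32.3% of AC. Without thinning, cones were deeper (median 2659.5 and 3179 UMIs) than rods (1088 and 1288), and Gucy2f was in 42.9% and 45.8% of rods, 16.9% and 17.3% of cones and 14.3% and 16.4% of AC. Thinning left 5903 and 6175 rods, 589 and 425 cones, and 625 and 892 AC. It changed the mix of the authors' rod clusters described below. In Ptbp1-Ctrl it left 1965 of 4614 rods of cluster 0 and 1662 of 1835 of cluster 3. In Ptbp1-KO it left 3092 of 5462 and 968 of 972.

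Outside photoreceptors the levels were set beside the rod markers. In bipolar cells (BC) the rod markers were at 15.1 to 16.2% of the rod level in Ptbp1-Ctrl and at 14.2 to 15.2% in Ptbp1-KO. Rgs9bp (26.9% and 25.6%), Gucy2e (24.4% and 25.2%) and Guca1a (23.7% and 21.1%) lay furthest above those ranges in both libraries. Rcvrn (19.2% and 18.3%), Rgs9 (19.2% and 17.1%), Grk1 (17.95% and 16.6%) and Pdc (17.7% and 16.2%) also lay above them in both, so that 7 of the 10 genes did. These were the same 7 genes that stood well above the rod markers in cones. The 5 cone markers summed to 1309 and 1137 CPM in BC, against 476 and 382 CPM in AC. Rod markers alone do not measure cone RNA, and its share in these BC levels was not tested. Rgs9bp protein is also known from ON bipolar cells. Over the 10 BC clusters the Rgs9bp level ran from 58.8 to 175 CPM and from 53.9 to 135 CPM and was highest in cluster 21, where the ON bipolar gene Grm6 was at 88.3 and 89.2 CPM and the cone gene Arr3 at 3921 and 4030 CPM. In Ptbp1-Ctrl its interval in cluster 21 (145 to 210 CPM) overlapped that of cluster 10 (159 CPM, 130 to 193 CPM), where Grm6 was at 499 CPM, and in Ptbp1-KO cluster 10 was at 85.6 CPM with Grm6 at 454 CPM. In Müller glia (MG) Gucy2f was at 112 CPM in Ptbp1-Ctrl, 23.1% of its rod level and above the markers (15.1 to 16.6%). In Ptbp1-KO it was at 64.1 CPM, 14.4% of its rod level and within the markers (12.3 to 15.3%). In the 124 and 97 cells named retinal ganglion cells the genes stood at a median of 55.1% and 84.2% of the rod level and the rod markers at 60.8% and 79.6%, so these cells say little about ganglion cells. The 17 and 7 horizontal cells held 115 and 57 UMIs of the 10 genes in all.

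By a rule on likeness over 10 sums (5 cell types in 2 libraries, among 3993 genes), Rcvrn, Rgs9 and Grk1 shared Rp1l1 as their nearest gene, with Euclidean distances of centred log2 levels of 0.22, 0.31 and 0.30. Gucy2f lay farthest from its nearest gene, B4galt1, at 0.64. Guca1a lay nearest to Ankrd33 (0.31) and Gucy2e to Fam161a (0.41).

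Rods were not uniform. The authors' clustering, made from all genes including these, placed rods in 4 clusters numbered 0 to 3, which held 45.9, 15.2, 20.7 and 18.2% of Ptbp1-Ctrl rods and 58.7, 12.2, 18.6 and 10.5% of Ptbp1-KO rods. Differences between clusters are therefore given as a description. Cluster 3 had the highest level of 8 of the 10 genes in both libraries. Rcvrn was at 1334, 1435, 3091 and 4722 CPM in clusters 0, 1, 2 and 3 of Ptbp1-Ctrl and at 1214, 1091, 3129 and 4887 CPM in Ptbp1-KO. Slc24a1 was at 762, 1104, 1440.3 and 2603 CPM and at 682, 1034, 1419 and 2545 CPM, and was the member that set cluster 1 most clearly above cluster 0 (log2 0.54 and 0.60).

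For the other genes, cluster 3 stood above cluster 0 by 1.03 and 1.26 for Rgs9bp on the log2 scale, by 1.003 and 1.17 for Guca1b, by 0.91 and 0.97 for Guca1a, by 0.90 and 1.03 for Pdc, by 0.71 and 0.96 for Gucy2e and by 0.33 and 0.43 for Grk1. Rgs9 was level, at 1089, 1033, 1051 and 1066 CPM in Ptbp1-Ctrl and at 1093, 1023, 1126 and 1088 CPM in Ptbp1-KO. Gucy2f ran the other way, from 611 and 598 CPM in clusters 0 and 1 to 422 and 295 CPM in clusters 2 and 3 of Ptbp1-Ctrl, and from 512 and 562 to 378 and 294 CPM in Ptbp1-KO. On the CPM scale the genes of one complex differed, since Rgs9bp was higher in cluster 3, Rgs9 was level, and Gnb5 was lower by log2 ratios of -0.49 and -0.58. Gene length went with this cluster difference over all genes (below). Against the median of genes of like length, Rgs9bp stood at -0.05 and 0.09 and Rgs9 at 0.75 and 0.77, so the order of these 2 turned. In both libraries, 4 of 10 genes were past 2-fold in cluster 3 over cluster 0 (Guca1b, Rcvrn, Slc24a1, Rgs9bp), against 17.8% of 3621 genes higher and 27.5% lower. For cluster 2 over cluster 0 it was 1 of 10 (Rcvrn), against 5.3%, and for cluster 1 none, against 0.39%.

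**Figure D3:**
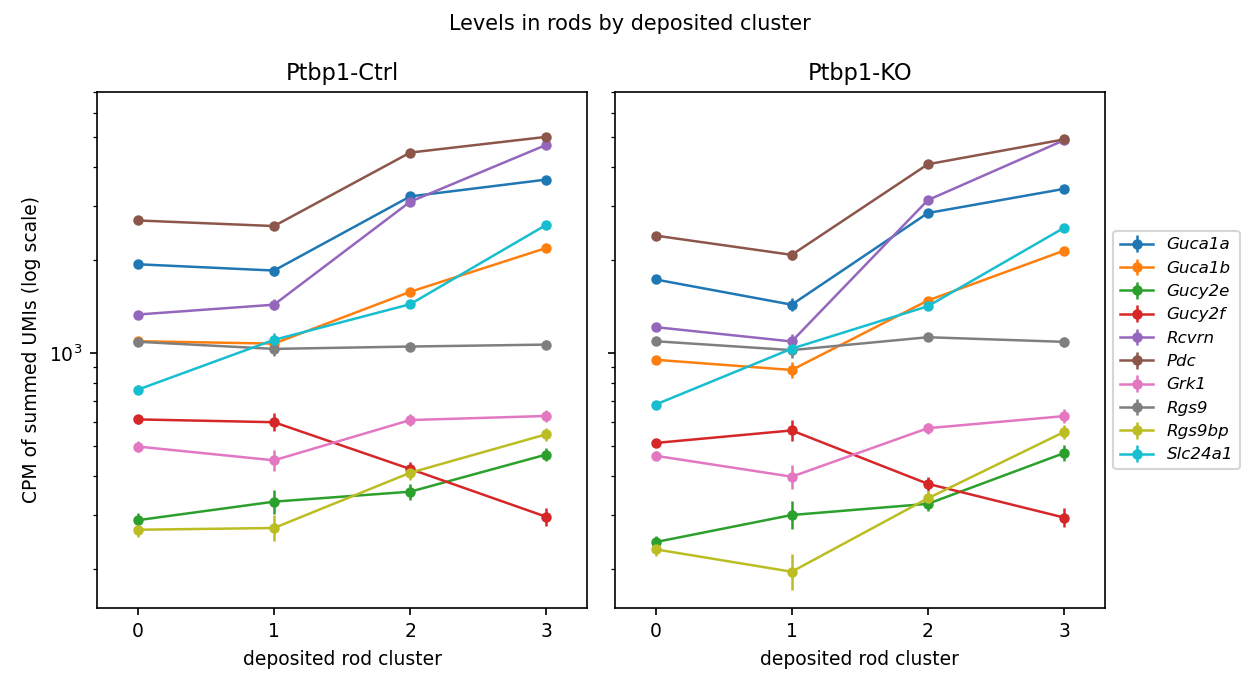
Level of each gene (CPM of summed UMIs, log scale) in rods of the 4 deposited clusters, with 95% Poisson intervals that are often smaller than the points; lines only join the points of a gene. In both libraries Rcvrn and Slc24a1 climb most toward cluster 3, Rgs9 stays near 1100 CPM and Gucy2f descends.

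Other measures moved with these clusters. From cluster 0 to cluster 3 the nuclear RNA Malat1 went from 35006 to 7300.1 CPM in Ptbp1-Ctrl and from 41006 to 6883 CPM in Ptbp1-KO and the median mitochondrial share of a cell from 0.662 to 5.12% and from 0.801 to 4.6%. The difference between the clusters also went with gene length over all genes. Among genes of 5 to 10 kb the median log2 ratio of cluster 3 over cluster 0 was 1.07 and 1.17, among genes of 50 to 100 kb -0.78 and -0.77, and among those over 100 kb -1.39 and -1.47. Against the median of its own length class, Slc24a1 stood highest, by 1.91 and 1.93, followed by Rcvrn (0.75 and 0.84) and Rgs9 (0.75 and 0.77). Gucy2f was above its class (0.34 and 0.67) although it was lower in cluster 3, while Guca1b, Rgs9bp and Guca1a lay within 0.20 of theirs, Pdc (0.28 and 0.35) and Gucy2e (0.08 and 0.27) a little above and Grk1 below (-0.29 and -0.26). Whether introns were counted was not given in the sources used here, and the part of nuclear RNA in these differences was not tested.

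**Figure D4:**
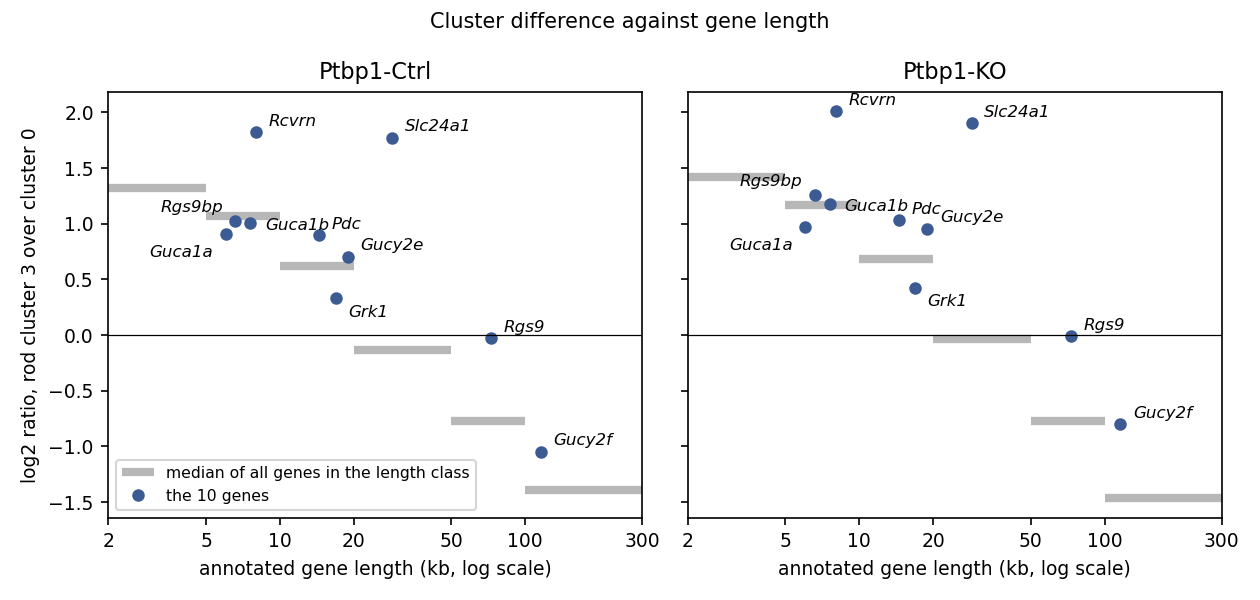
Log2 ratio of rod cluster 3 over cluster 0 for the 10 genes (points) against annotated gene length (kb, log scale), with the median of all genes in each length class as grey bars, drawn from 2 kb for the lowest class and to 300 kb for the highest. The class medians descend from 1.32 to -1.39 in Ptbp1-Ctrl and from 1.42 to -1.47 in Ptbp1-KO, and Slc24a1, Rcvrn and Rgs9 lie furthest above them.

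The second comparison asked whether loss of Ptbp1 went with other levels of these genes. In rods 9 of 10 genes were lower in the Ptbp1-KO library, by small amounts, with a median log2 ratio of -0.19 against 0.0046 over all genes. On the CPM scale none was past 1.2-fold in either direction, against 5.91% of 3855 genes lower and 6.25% higher. The count rested on the scaling. TMM and median-of-ratios factors lowered every gene of this comparison by 0.094 and 0.11 on the log2 scale, which put 6 and 7 of the 10 genes past 1.2-fold lower, against 14.4% and 17.0% of all genes, and moved the share of lower among all called genes from 48.6% to 82.4% and 85.4%.

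Rgs9bp showed the largest difference in rods, from 373 to 313 CPM (log2 -0.25, -0.31 to -0.20), followed by Guca1a (-0.22), Slc24a1 (-0.22), Guca1b (-0.20), Gucy2e (-0.20), Pdc (-0.18), Rcvrn (-0.17), Gucy2f (-0.13) and Grk1 (-0.10). Rgs9 was the exception, at 1067 and 1095 CPM (0.04, 0.00 to 0.07), and its sign turned under 4 of 12 other settings, including both scalings above. Of 16 other phototransduction genes measured in rods, 1 was past 1.2-fold lower (Pde6g, -0.39) and none higher. Amacrine cells gave a median of -0.21 for the same 10 genes, BC -0.31 and MG -0.31, so the difference in these cell types was of similar size or larger. The cells named retinal ganglion cells went the other way (0.42), beside rod markers of 5665 CPM (control) and 7739 CPM (mutant).

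In cones 8 of 10 genes were lower in Ptbp1-KO, with a median of -0.12 against -0.02 over all genes. Gucy2f was the 1 gene past 1.2-fold lower (-0.39, -0.75 to -0.03), against 13.2% of 3997 genes, and none was past it higher, against 12%. It rested on 168 UMIs in the control and 105 in the mutant, at the level of the rod RNA in cones, and with per-cell means, with thinned cells or without the deepest cells Rcvrn was past the fold and Gucy2f was not. Guca1a (-0.22) and Guca1b (-0.23) were lower by about as much as in rods, and Rcvrn was at -0.26 in cones against -0.17 in rods. Rgs9bp (0.10, -0.10 to 0.31) and Rgs9 (0.02, -0.09 to 0.13) had intervals that included 0. Whether any of these ratios differed between rods and cones was not tested.

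The difference in rods was not the same in every cluster. Within cluster 0 the median of the 10 ratios was -0.16, within cluster 1 -0.23, within cluster 2 -0.11 and within cluster 3 -0.0046. In cluster 1 5 of 10 genes were past 1.2-fold lower (Guca1a, Guca1b, Rcvrn, Pdc, Rgs9bp), against 17.1% of all genes, and in cluster 2 1 of 10 (Rgs9bp), against 6.59%. None passed it lower in clusters 0 and 3, against 5.71% and 8.4%, and none passed it higher in clusters 0, 1, 2 or 3, against 6.97%, 13.8%, 7.8% and 9.74%. In cluster 3 the ratios ran from -0.10 (Guca1a) to 0.05 (Rcvrn). Cluster 3, where 8 of these genes were highest, held 18.2% of Ptbp1-Ctrl rods and 10.5% of Ptbp1-KO rods. With the 4 clusters weighted alike in both libraries the median was -0.12, with none past 1.2-fold.

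**Figure D5:**
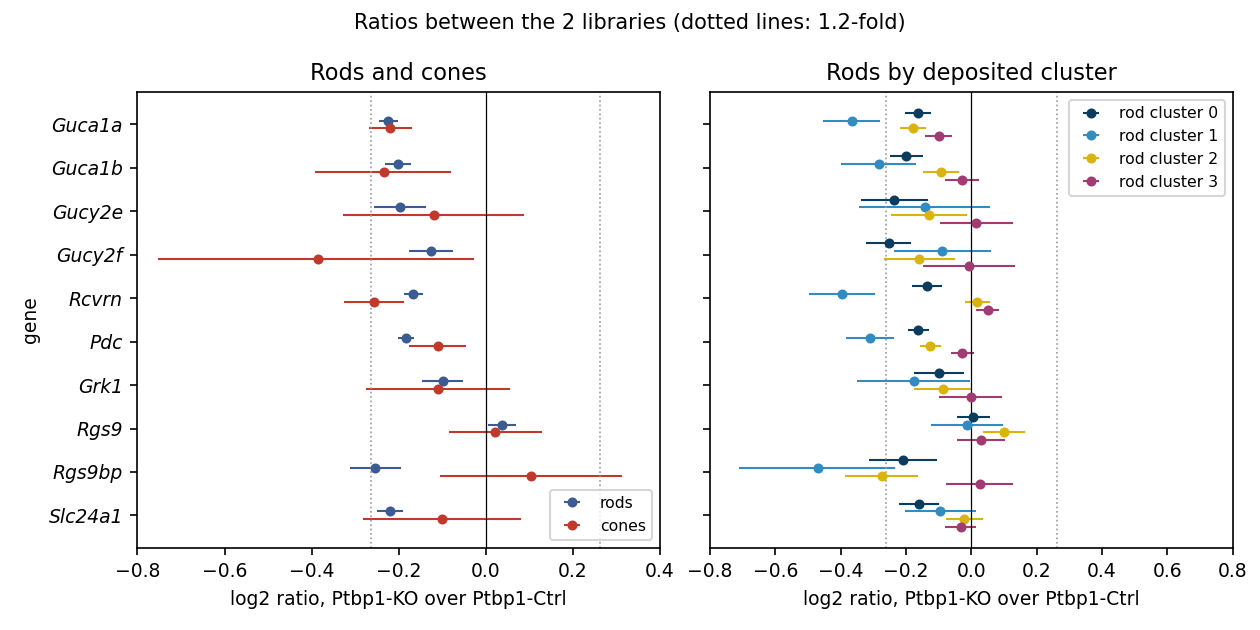
Log2 ratio of the Ptbp1-KO over the Ptbp1-Ctrl library for each gene in rods and cones (left) and in the 4 deposited rod clusters (right), with 95% intervals for counting error; dotted lines mark 1.2-fold. In rods 9 of 10 genes lie below 0 and none passes the dotted line, and cluster 3 lies nearest to 0.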

How the data were processed

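Whole retinas of 2 mice were dissociated with papain and profiled with 10x 3 prime v3.1 chemistry. Per the labels and methods, the authors aligned reads to mm10 with Cell Ranger 7.0.1, kept cells above 200 and below 5000 genes, between 700 and 10000 UMIs, and under 20% mitochondrial UMIs, and clustered them in Seurat. They deposited raw UMI counts per gene and cell, the percent of mitochondrial UMIs and for each cell its cluster and type. The annotation counted against was not given in the sources used here. Columns of 2 further per-cell values were not used.

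UMI counts were summed over the cells of each library and cell type or rod cluster and expressed as CPM with exact Poisson intervals. Log2 ratios had exact conditional binomial intervals and shares of cells Clopper-Pearson intervals (Python 3.11.15, scipy 1.17.1). With 1 library per genotype, cells not being replicates, no test was run, and genes were counted as past 2-fold (between cell types or clusters, in both libraries) or 1.2-fold (between libraries) at a mean of at least 50 CPM and at least 50 UMIs. The study's Wilcoxon test over cells was not used. No doublet caller was run, and the deepest 10% of cells were left out as an alternative. Other alternatives were TMM factors (edgeR 4.0.16), median-of-ratios factors, other totals, per-cell means, thinning, subtraction of free RNA, other expression minimums and single clusters. The ratio was tested on simulated data. The 10 genes and the lists of other genes were chosen with earlier results of these data known, and the study had named Guca1a, Pdc and Rcvrn from the same cells. All 10 genes are named in full, with up to 6 of the other phototransduction genes by largest and smallest ratio, and for likeness the nearest genes by Euclidean distance of centred log2(CPM + 1). One gene of the rod marker and phototransduction lists is not reported here. Names beyond this rule, Malat1, gene length and the BC clusters were added after values were seen.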

Additional observations from a re-analysis of the deposited data

How the results depend on the processing

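No paired analysis was possible because each genotype had 1 library and the labels give no shared replicate numbers. For the same reason no library could be left out. With free RNA subtracted, the median of rods over cones in Ptbp1-KO was -0.098 over the 9 genes with a value, against 0.44 over all 10. Gucy2f, which had the largest rod excess, was the gene without one, so these medians are not over the same genes. In Ptbp1-Ctrl that subtraction gave 0.24, and rods of the largest cluster alone gave 0.24 and 0.17. Free RNA subtraction left Gucy2f without a value in Ptbp1-KO. It put 1 gene past 2-fold in cones (Guca1a, log2 -1.39 and -1.56), as did the largest rod cluster (1 gene). For Slc24a1 the log2 ratio was 3.06 and 3.92 with free RNA subtracted and 1.21 and 1.15 with the largest rod cluster.

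For Ptbp1-KO over Ptbp1-Ctrl in rods, the median was -0.28 with TMM, -0.30 with median-of-ratios factors, -0.26 as a mean of per-cell CPM, -0.30 after thinning, -0.28 with free RNA subtracted, -0.11 and -0.0046 within clusters 2 and 3, and -0.12 with clusters weighted alike (added after seeing the data). Counts under other settings of the ratio were also added after seeing the data. In rods the number past 1.2-fold lower went from 0 to 6 (TMM), 7 (median-of-ratios) and 1 (other totals), against 14.4%, 17.0% and 6.69% of all genes. It went to 5 (per-cell means), 6 (thinned), 6 (free RNA subtracted) and 2 (without the deepest cells). In cones it went from 1 to 3 (TMM) and 4 (median-of-ratios), against 17.2% and 18.4% of all genes. It went to 2 (per-cell means), 3 (thinned) and 3 (free RNA subtracted), and to 0 at a minimum of 200 CPM. The share of all genes was not computed for per-cell means, thinning, free RNA or the deepest cells. Those counts therefore have no background beside them. The cause was not tested. For cluster 3 over cluster 0 the medians were 1.02 and 1.10 with other totals (added after seeing the data), 0.82 in Ptbp1-Ctrl after thinning and 1.08 in Ptbp1-KO without the deepest cells. The share of all genes past the fold became 11.5% (rods over cones, higher) and 10.8% (rods, lower) and 7.68% (cones, higher) at a minimum of 200 CPM, 9.46% (rods, higher) at 20 CPM, and 30.2% (rods, higher) and 23.4% (cones, higher) with no minimum CPM.

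Of 408 values of single genes under other settings, 200 moved by less than their counting interval and 208 by more. None past its fold changed sign. Depth limits Gucy2f in cones, which rests on 168 and 105 UMIs, and all 10 genes in horizontal cells.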
